A study of Homo sapiens with 4 samples.

Results

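The proteasome genes described here are the protein-coding rows of the count table whose symbol starts with PSMA, PSMB, PSMC, PSMD, PSME, PSMF or PSMG followed by a digit, together with POMP and PAAF1. The rule found 51 of the 62893 rows, and 49 of these 51 genes passed the filter on low counts. No row could be matched to PSMB3, a structural subunit of the beta ring, and that gene is not analysed here. PSMC3IP, a recombination factor, and PSME3IP1, a binding partner of PSME3, entered through the start of their symbols and are not subunits. The poly(A) RNA came from T24 cells, an established line grown from a human bladder carcinoma. Of the 4 libraries, 2 were labelled siControl and 2 were labelled siNSUN2, for cells in which small interfering RNA lowered NSUN2, an enzyme that methylates cytosine in RNA. The sequences of the siRNAs, their dose and the time of treatment were not given in the labels. All 4 libraries came from this 1 line.

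The proteasome is the protease complex that degrades proteins tagged with ubiquitin. Its 20S core is a barrel in which alpha subunits (the PSMA genes) gate the entry and beta subunits (the PSMB genes) carry the proteolytic sites. The 19S cap takes in substrates through a base built around ATPases (the PSMC genes) and a lid (most PSMD genes) that removes the ubiquitin chain. In cells exposed to interferon, the catalytic subunits PSMB5, PSMB6 and PSMB7 are replaced in newly built cores by PSMB8, PSMB9 and PSMB10, which together form the immunoproteasome, and the activator ring of PSME1 and PSME2 is induced with them. When proteasome activity falls, the transcription factor NFE2L1 drives transcription of the subunit genes through antioxidant response elements.

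The promoters of PSMB8, PSMB9, PSMB10, PSME1 and PSME2 are printed because these 5 interferon-linked genes all rose in the siNSUN2 libraries. Each window runs from 250 bases before to 50 bases after the annotated start, 5′ to 3′ on the gene's strand, and comes from RefSeq on GRCh38.p14, in which 45 of the 51 members were found. Capitals mark matches on either strand to the antioxidant response element core TGACNNNGC, the interferon-stimulated response element core GAAANNGAA or the ETS core CCGGAAG, each counted by itself where they overlap. PSMB8 lies at chr6:32843998-32844297 on the minus strand, PSMB9 at chr6:32853942-32854241 on the plus strand and PSMB10 at chr16:67936801-67937100 on the minus strand. PSME1 lies at chr14:24135944-24136243 on the plus strand and PSME2 at chr14:24146561-24146860 on the minus strand. A further annotated start of PSMB8 has a window without a match and is not printed.
PSMB8: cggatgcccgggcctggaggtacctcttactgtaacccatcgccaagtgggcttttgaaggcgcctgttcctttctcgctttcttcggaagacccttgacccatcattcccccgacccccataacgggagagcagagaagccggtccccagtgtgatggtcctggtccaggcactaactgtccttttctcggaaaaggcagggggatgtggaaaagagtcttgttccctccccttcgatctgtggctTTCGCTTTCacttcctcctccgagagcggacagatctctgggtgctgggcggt
PSMB9: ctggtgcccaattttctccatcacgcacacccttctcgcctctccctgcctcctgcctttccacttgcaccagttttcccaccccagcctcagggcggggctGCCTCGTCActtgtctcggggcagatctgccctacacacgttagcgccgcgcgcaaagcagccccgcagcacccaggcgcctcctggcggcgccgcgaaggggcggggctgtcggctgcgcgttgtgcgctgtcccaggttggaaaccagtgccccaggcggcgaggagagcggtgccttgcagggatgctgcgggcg
PSMB10: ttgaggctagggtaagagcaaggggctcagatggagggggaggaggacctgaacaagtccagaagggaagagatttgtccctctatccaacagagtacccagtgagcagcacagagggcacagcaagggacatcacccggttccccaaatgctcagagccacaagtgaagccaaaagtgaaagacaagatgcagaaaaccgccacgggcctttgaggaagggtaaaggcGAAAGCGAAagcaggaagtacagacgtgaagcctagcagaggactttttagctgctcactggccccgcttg
PSME1: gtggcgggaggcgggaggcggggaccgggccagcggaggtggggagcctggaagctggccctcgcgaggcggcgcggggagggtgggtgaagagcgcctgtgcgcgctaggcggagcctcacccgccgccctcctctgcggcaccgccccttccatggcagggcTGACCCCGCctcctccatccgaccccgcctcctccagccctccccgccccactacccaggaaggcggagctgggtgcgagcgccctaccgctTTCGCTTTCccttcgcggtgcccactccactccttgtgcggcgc
PSME2: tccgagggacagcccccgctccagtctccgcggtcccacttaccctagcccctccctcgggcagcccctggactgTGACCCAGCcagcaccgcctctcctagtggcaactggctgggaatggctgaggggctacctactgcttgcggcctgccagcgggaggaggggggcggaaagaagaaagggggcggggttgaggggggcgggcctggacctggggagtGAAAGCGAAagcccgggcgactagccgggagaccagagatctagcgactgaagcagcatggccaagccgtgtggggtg
Counted from the first transcribed base as 1, the same 9 letters, GAAAGCGAA or the reverse complement TTCGCTTTC, stood at -3 to 6 in PSMB8, at -21 to -13 in PSMB10, at 7 to 15 in PSME1 and at -28 to -20 in PSME2. The PSMB9 window held no interferon-stimulated core and had an antioxidant core at -148 to -140.

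The exact form GAAAGCGAA, which was singled out after these windows had been read, was present in 5 of the 45 matched members (11.1%) and in 0.33% of the 27305 genes with a RefSeq window. The fifth member was PSMG4, a chaperone of core assembly, which fell. The 27305 genes include genes that were not tested in these cells, here and for the cores below. With its 2 free letters, the interferon-stimulated core was found in 9 members (20%, against 9.86% of all genes), of which 4 rose and 5 fell. The 5 that fell were POMP, PSMA4, PSMB4, PSMC2 and PSMG4. The antioxidant core was found in 14 members (31.1%, against 16.1%), of which 4 rose, 7 fell and 3 were not called. The ETS core was found in 19 members (42.2%, against 12.2%), of which 2 rose, 10 fell, 6 were not called and 1 was not tested. Of all genes tested, 27.1% rose and 25.5% fell, and the shares that rose or fell among all genes with each core were not computed. The part of GC content in these counts was not tested. A match describes letters in the window and shows no binding.

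The libraries held 33633249 to 215936965 counts, so a level of 1 CPM (a count scaled to the library total) stood for 33.6 to 216 counts. NSUN2 was at 281 and 284 CPM in the siControl libraries and at 29.6 and 30.1 CPM in the siNSUN2 libraries (log2 fold change -3.24, SE 0.0429, edgeR adjusted p = 1.64e-09). Of the 16889 genes tested with edgeR's quasi-likelihood test, 52.6% passed a Benjamini-Hochberg adjusted p of 0.05, with 27.1% higher and 25.5% lower. The labels do not say whether the libraries came from separate cultures, so each p-value reflects the spread among the 4 libraries alone, and that spread may be technical. Of 12 urothelial and epithelial markers, KRT7, KRT8 and KRT18 were at 108 CPM or more in every library, UPK1B was at 3.86 and 4.18 CPM in siControl and 1.62 and 2.07 CPM in siNSUN2, and the other 8 did not exceed 0.494 CPM in any, with UPK3A at 0. The 3 mesenchymal markers VIM, CDH2 and ZEB1 summed to 1140 and 1180 CPM in siControl and to 1940 CPM in both siNSUN2 libraries.

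Most proteasome genes changed little after NSUN2 was lowered, and those that changed were more often lower. Of the 49 genes tested, 19 fell (38.8%, against 25.5% of all genes), 12 rose (24.5%, against 27.1%) and 18 did not pass the test. The log2 fold change was smaller in size than 0.5 in 41 of the 49. Both a call and a log2 fold change of at least 0.5 in size were found for 6 members (12.2%, against 26.5% of all genes). These were the immunoproteasome subunits PSMB9 and PSMB10, which rose, and the lid subunit PSMD3, the beta subunit PSMB4, the assembly chaperone PSMG1 and the activator PSME4, which fell. The median log2 fold change was -0.036 over the members and 0.026 over all genes tested. For the 42 members other than PSMB8, PSMB9, PSMB10, PSME1, PSME2, PSMC3IP and PSME3IP1, the summed CPM was 6938 and 6990 in the siControl libraries and 6704 and 6396 in the siNSUN2 libraries. Both siNSUN2 sums were below both siControl sums, and among these 42 genes 18 fell and 7 rose (background 25.5% and 27.1%), with a median log2 fold change of -0.065. With GC and length trends taken off, 10 of the 42 fell and 10 rose (background 23.8% and 23.7%), with a median of 0.040.

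The direction of the small changes went with the base composition of the transcripts. When trends on GC content and transcript length were taken off each library, 16 members rose (background 23.7%) and 11 fell (background 23.8%), and the median became 0.070. The median was also -0.11 without siNSUN2 replicate 1 and 0.055 without siNSUN2 replicate 2. The calls made under all 20 alternative settings were those of PSMB9, PSMB10 and PSME1, which rose, and of PSMB4, PSMD1, PSMD3, PSME3IP1, PSME4 and PSMG1, which fell. PSMA4 was called lower in each setting but 1, in which it was not tested because its 3′ UTR holds the word ACCCTA.

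**Figure D1:**
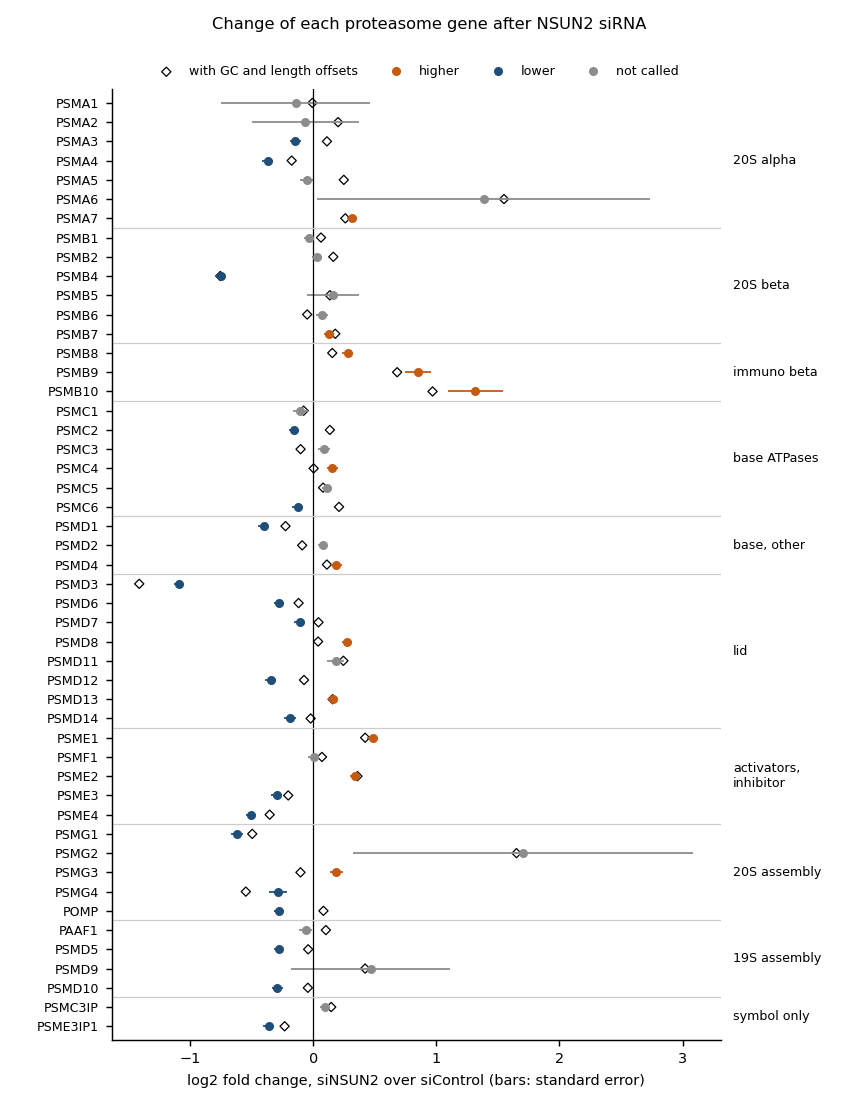
Log2 fold change (siNSUN2 over siControl) of the 49 proteasome genes tested, grouped by role, with the standard error as a bar and the value after removal of GC and length trends as an open diamond. PSMD3 lies farthest left at -1.09, the immunoproteasome subunits lie right of 0, and the widest bars belong to PSMA6 and PSMG2, which were not called.

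The inducible subunits of the immunoproteasome and the activator ring that pairs with it rose together, from low levels in the case of the subunits. PSMB10 (ENSG00000205220), which carries the trypsin-like site, was at 4.50 and 5.28 CPM in siControl and 14.5 and 9.84 CPM in siNSUN2 (log2 fold change 1.32, SE 0.223, edgeR adjusted p = 0.00838). Both siNSUN2 values were above both siControl values. The higher value was that of replicate 2 in siControl and of replicate 1 in siNSUN2, the 2 libraries with the largest totals. Of the coding bases of PSMB10, 60.1% lie inside exons of another gene on the same strand, as described below for the genes with low counts. PSMB9 (ENSG00000240065), which replaces PSMB6, was at 8.73 and 7.49 CPM in siControl and 15.6 and 13.4 CPM in siNSUN2 (log2 fold change 0.85, SE 0.109, edgeR adjusted p = 1.97e-04). PSMB8 (ENSG00000204264), which carries the chymotrypsin-like site, was at 40.8 and 42.8 CPM in siControl and 50.9 and 50.7 CPM in siNSUN2 (log2 fold change 0.28, SE 0.0464, edgeR adjusted p = 7.33e-04). The groups did not overlap for any of the 3 subunits, which was also the case for 74.5% of all genes tested, and the size of the change differed from 1.21-fold for PSMB8 to 2.49-fold for PSMB10. The PSMB8 change was 0.15 with GC and length trends taken off and 0.18 without siControl replicate 1, and it stayed past the threshold in both.

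PSME1 and PSME2 encode the interferon-induced activator ring that opens the core without ATP. PSME1 was at 92.3 and 94.0 CPM in siControl and 134 and 126 CPM in siNSUN2 (log2 fold change 0.48, SE 0.0456, edgeR adjusted p = 1.87e-05). PSME2 was at 158 and 158 CPM in siControl and 206 and 193 CPM in siNSUN2 (log2 fold change 0.34, SE 0.0436, edgeR adjusted p = 1.45e-04). The groups overlapped for neither gene (nor for 74.5% of all genes tested), and in both the higher siNSUN2 value was that of replicate 1. All 5 genes were called higher in each alternative, except that PSMB8 and PSME2 did not pass a test against a fold of 1.2. The median log2 fold change of the 5 was 0.48, and 0.42 with GC and length trends taken off.

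Because each inducible subunit takes the place of a constitutive one, the inducible form was also expressed as a share of its pair, in counts per kilobase of exon. With 2 libraries a group, an exact permutation test cannot go below p = 0.33, so these shares are given as a description. PSMB10 was 1.95% and 2.33% of the PSMB10 and PSMB7 pair in siControl and 5.51% and 3.95% in siNSUN2 (means 2.14% ± 0.271 and 4.73% ± 1.10, SD, n = 2 each). PSMB9 was 2.37% and 2.15% of its pair with PSMB6 in siControl and 3.95% and 3.64% in siNSUN2 (means 2.26% ± 0.157 and 3.79% ± 0.218, SD, n = 2 each). PSMB8 was 25.7% and 24.2% of its pair with PSMB5 in siControl and 24.0% and 29.6% in siNSUN2 (means 24.9% ± 1.10 and 26.8% ± 3.97, SD, n = 2 each). The shares of PSMB9 and PSMB10 were higher in both siNSUN2 libraries than in either siControl library, whereas those of PSMB8 overlapped between the groups. The difference in the PSMB8 share was 1.86 percentage points, and -0.947 without siNSUN2 replicate 2. The constitutive form remained the main one in all 3 pairs.

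**Figure D2:**
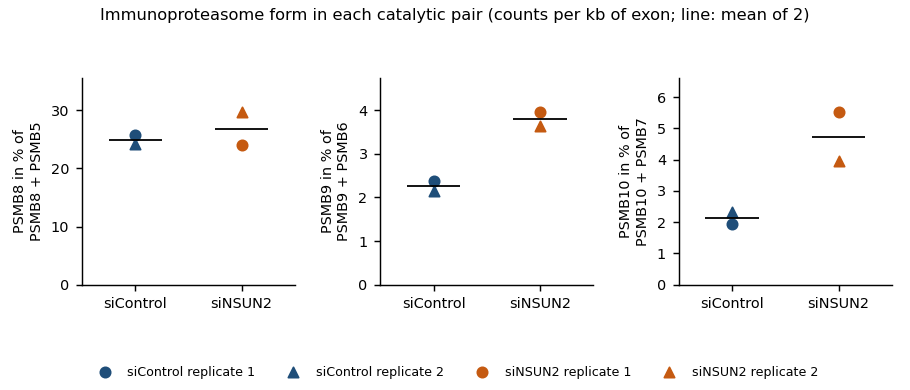
Share of the inducible form in each catalytic pair, in percent of the pair's counts per kilobase of exon, for each library (points) with the mean of the 2 libraries of a group (lines). The siNSUN2 points lie above the siControl points for PSMB9 and PSMB10 and on both sides of them for PSMB8.

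Markers of blood cells, in which the immunoproteasome is abundant, were measured beside these genes. The 5 leukocyte markers summed to 0 and 0.141 CPM in siControl and to 0.12 and 2.25 CPM in siNSUN2. Of the 5, 1 was at 0 in every library. In siNSUN2, PTPRC was at 0.0436 and 0.584 CPM and LYZ at 0.0436 and 1.55 CPM. The 3 endothelial markers summed to 0.636 and 0.395 CPM in siControl and 2.38 and 10.6 CPM in siNSUN2. PECAM1 was at 0 in every library. VWF was at 0.165 and 0.113 CPM in siControl and 1.8 and 8.73 CPM in siNSUN2. CDH5 was at 0.471 and 0.282 CPM in siControl and 0.577 and 1.87 CPM in siNSUN2. The 4 erythroid markers summed to 0 and 0.761 CPM in siControl and 0 and 2.92 CPM in siNSUN2. HBB was at 0 and 0.188 CPM in siControl and 0 and 2.66 CPM in siNSUN2. LYZ, VWF, CDH5 and HBB were each highest in siNSUN2 replicate 2. The part of such cells in the rise of the 5 proteasome genes was not tested. In bulk RNA, fewer cells of a type and less RNA per cell cannot be told apart.

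Other interferon-linked genes of the antigen presentation path did not move in 1 direction. Of 8 listed genes, 4 rose and 4 fell (27.1% and 25.5% of all genes tested), with a median log2 fold change of 0.085. TAP1, the peptide transporter subunit whose gene faces PSMB9 across a shared promoter, went from 47.1 and 47.4 CPM to 86.1 and 80.6 CPM (log2 fold change 0.82, SE 0.0465, edgeR adjusted p = 8.25e-07). IRF1, an interferon-induced transcription factor, went from 36.9 and 37.5 CPM to 65.4 and 59.9 CPM (log2 fold change 0.75, SE 0.0526, edgeR adjusted p = 2.74e-06). TAP1 and IRF1 were higher in both siNSUN2 libraries than in either siControl library, and TAP1 was at 0.53 with GC and length trends taken off.

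In the 20S core, 1 alpha subunit rose and 2 fell of the 7 tested, and 1 constitutive beta subunit rose and 1 fell of 6. Of all genes tested, 27.1% rose and 25.5% fell. The largest change was in PSMB4 (ENSG00000159377), a structural beta subunit with no proteolytic site of its own. It was at 209 and 216 CPM in siControl and 126 and 128 CPM in siNSUN2 (log2 fold change -0.75, SE 0.0401, edgeR adjusted p = 5.98e-07). The replicates of each group lay close together, and the value with GC and length trends taken off was -0.76. Set against the median of the 5 other constitutive beta genes, per kilobase of coding sequence, PSMB4 went from 1.01 and 1.06 in siControl to 0.564 and 0.605 in siNSUN2. PSMB4 thus fell without a like fall of its neighbours in the ring.

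The other beta subunits changed by 0.16 or less in size on the log2 scale. PSMB7, the constitutive trypsin-like subunit, was at 218 and 213 CPM in siControl and 239 and 231 CPM in siNSUN2 (log2 fold change 0.13, SE 0.0400, edgeR adjusted p = 0.0245). It lost its call when siControl replicate 1, siControl replicate 2 or siNSUN2 replicate 1 was left out (log2 fold changes 0.077, 0.092 and 0.098). PSMB6, the caspase-like subunit, was at 169.5 and 161 CPM in siControl and 179 and 167 CPM in siNSUN2 (log2 fold change 0.071, edgeR adjusted p = 0.261), with overlapping groups. PSMB1, PSMB2 and PSMB5 did not pass the test either, with log2 fold changes of -0.036, 0.031 and 0.16, although PSMB2 was called higher, at 0.16, with GC and length trends taken off. The PSMB5 value was less precise (SE 0.21, against 0.0417 for PSMB1 and 0.0381 for PSMB2). PSMB5 was at 69.4 and 79.1 CPM in siControl and 94.9 and 71.0 CPM in siNSUN2, with overlapping groups.

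In the alpha ring, PSMA7 (ENSG00000101182) rose and PSMA4 (ENSG00000041357) fell by similar amounts. PSMA7 was at 369.7 and 374 CPM in siControl and 471 and 454 CPM in siNSUN2 (log2 fold change 0.32, SE 0.0391, edgeR adjusted p = 1.10e-04). PSMA4 was at 264 and 261 CPM in siControl and 210.1 and 196 CPM in siNSUN2 (log2 fold change -0.37, SE 0.0446, edgeR adjusted p = 9.20e-05). PSMA7 was higher and PSMA4 lower in both siNSUN2 libraries, with no overlap between groups as in 74.5% of all genes tested, and the PSMA4 change was -0.18 with GC and length trends taken off. PSMA3 fell by 0.15 on the log2 scale, lost its call without siNSUN2 replicate 2 (-0.10), and was called higher, at 0.11, with GC and length trends taken off. PSMA5 did not pass the test at -0.052 and was called higher, at 0.25, with those trends taken off.

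In the base of the 19S cap, which unfolds the substrate, the ATPases changed little. Among the 6 ATPases, 1 rose and 2 fell (27.1% and 25.5% of all genes tested) and 3 were not called. No log2 fold change of an ATPase exceeded 0.16 in size. PSMC2 was at 138 and 139 CPM in siControl and 126 and 122 CPM in siNSUN2 (log2 fold change -0.16, SE 0.0409, edgeR adjusted p = 0.00890). PSMC4 was at 110.3 and 109.9 CPM in siControl and 125 and 120.3 CPM in siNSUN2 (log2 fold change 0.16, SE 0.0413, edgeR adjusted p = 0.0108). PSMC2 was lower and PSMC4 higher in both siNSUN2 libraries. With GC and length trends taken off, PSMC2 was called higher, at 0.13, and PSMC4 lost its call, at 0.0026. PSMC4 also lost its call without siControl replicate 1 (0.091). PSMC6 fell by 0.13 on the log2 scale, lost its call without siNSUN2 replicate 2 (-0.078) and was called higher, at 0.21, with the trends taken off. PSMC1, PSMC3 and PSMC5 were not called, at -0.11, 0.089 and 0.11. PSMC1 was called lower without siControl replicate 1 (-0.25), PSMC3 higher without siNSUN2 replicate 2 (0.16) and PSMC5 higher without siControl replicate 2 (0.14).

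The non-ATPase subunits of the base bind ubiquitin and shuttle proteins. PSMD1 (ENSG00000173692), the large scaffold of the base, was at 287 and 285 CPM in siControl and 224 and 209 CPM in siNSUN2 (log2 fold change -0.40, SE 0.0441, edgeR adjusted p = 4.98e-05). PSMD4, a ubiquitin receptor, was at 191 and 192 CPM in siControl and 225 and 211 CPM in siNSUN2 (log2 fold change 0.19, SE 0.0433, edgeR adjusted p = 0.00517). PSMD1 was lower and PSMD4 higher in both siNSUN2 libraries. With GC and length trends taken off, the changes were -0.23 and 0.11. PSMD4 lost its call without siControl replicate 1 (0.11). PSMD2, the other large scaffold of the base, was not called at 0.075, and was called lower, at -0.091, with the trends taken off.

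The lid held the largest change among all members. PSMD3 (ENSG00000108344), a scaffold subunit of the lid, was at 192 and 191 CPM in siControl and 90.6 and 88.8 CPM in siNSUN2 (log2 fold change -1.09, SE 0.0397, edgeR adjusted p = 8.79e-08). Its siNSUN2 level was 0.469 of the siControl level, the replicates of each group were nearly equal, and the change was -1.41 with GC and length trends taken off. Against the median of the 7 other lid genes, per kilobase of coding sequence, PSMD3 was at 0.658 and 0.678 in siControl and at 0.282 and 0.286 in siNSUN2. PSMD3 was therefore also lower relative to the rest of the lid in both siNSUN2 libraries.

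The other lid genes changed by less, in both directions. PSMD12 was at 229 and 241 CPM in siControl and 188 and 181 CPM in siNSUN2 (log2 fold change -0.35, SE 0.0432, edgeR adjusted p = 1.15e-04). PSMD6 was at 137 and 134 CPM in siControl and 112 and 110.5 CPM in siNSUN2 (log2 fold change -0.28, SE 0.0400, edgeR adjusted p = 2.74e-04). Both scaffold subunits were lower in each siNSUN2 library, and with GC and length trends taken off PSMD12 lost its call (-0.076) while PSMD6 kept it (-0.12). PSMD14, the deubiquitinase of the lid, fell by 0.19 on the log2 scale and lost its call with the trends taken off (-0.022). PSMD7, the partner of PSMD14, fell by 0.11, with no call without siNSUN2 replicate 2 (-0.069) and a value of 0.042 with the trends taken off. PSMD8 rose by 0.27 and lost its call with the trends taken off (0.039). PSMD13 rose by 0.16 and lost its call without siControl replicate 2 (0.10) or siNSUN2 replicate 1 (0.13). PSMD11 was not called, at 0.18, and was called higher without siControl replicate 2 (0.26) and with the trends taken off (0.24).

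Among the regulators that bind the ends of the core, the interferon-induced ring rose and the nuclear activators fell. PSME4 (ENSG00000068878), the activator known for histone degradation, was at 141 and 146 CPM in siControl and 102 and 100.1 CPM in siNSUN2 (log2 fold change -0.51, SE 0.0415, edgeR adjusted p = 7.34e-06). PSME3, the nuclear activator related to PSME1 and PSME2, was at 337 and 334 CPM in siControl and 283 and 262 CPM in siNSUN2 (log2 fold change -0.30, SE 0.0451, edgeR adjusted p = 4.03e-04). Both were lower in each siNSUN2 library. PSME3IP1, the nuclear partner of PSME3, was at 109 CPM in both siControl libraries and at 82.6 and 86.6 CPM in siNSUN2 (log2 fold change -0.36, SE 0.0427, edgeR adjusted p = 7.71e-05), and at -0.23 with GC and length trends taken off. PSMF1, the inhibitor of the core, was at 138 and 144 CPM in siControl and 145.5 and 137 CPM in siNSUN2 (log2 fold change 0.0018, edgeR adjusted p = 0.98), with overlapping groups. PSMC3IP was not called (log2 fold change 0.093, edgeR adjusted p = 0.0949), and was called higher, at 0.15, with GC and length trends taken off.

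The assembly factors of the core were lower for 3 of 5 genes (25.5% of all genes tested). PSMG1 (ENSG00000183527), which pairs with PSMG2 to start the alpha ring, was at 104 and 96.7 CPM in siControl and 64.1 and 66.2 CPM in siNSUN2 (log2 fold change -0.62, SE 0.0481, edgeR adjusted p = 5.24e-06). POMP, the maturation factor on which the beta ring is built, was at 257 and 259 CPM in siControl and 218 and 208 CPM in siNSUN2 (log2 fold change -0.28, SE 0.0409, edgeR adjusted p = 3.52e-04). PSMG4, the partner of PSMG3, was at 19.1 and 18.1 CPM in siControl and 16.1 and 14.3 CPM in siNSUN2 (log2 fold change -0.29, SE 0.0764, edgeR adjusted p = 0.0108). All 3 genes were lower in both siNSUN2 libraries. With GC and length trends taken off, PSMG1 was at -0.50, PSMG4 at -0.55 and POMP at 0.082, no longer called. PSMG4 lost its call without siNSUN2 replicate 2 (-0.20). PSMG3 rose by 0.19, a call that was lost without siControl replicate 1 (0.14), siControl replicate 2 (0.15) or siNSUN2 replicate 1 (0.15), and its value was -0.10 with the trends taken off.

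The chaperones that assemble the base showed smaller changes. PSMD10, which binds PSMC4, was at 50.5 and 50.1 CPM in siControl and 41.8 and 40.3 CPM in siNSUN2 (log2 fold change -0.29, SE 0.0456, edgeR adjusted p = 4.93e-04). PSMD5 was at 154.5 and 158 CPM in siControl and 131.5 and 126 CPM in siNSUN2 (log2 fold change -0.28, SE 0.0422, edgeR adjusted p = 3.96e-04). Both were lower in each siNSUN2 library, and neither kept its call with GC and length trends taken off (-0.044 and -0.042). PAAF1 was not called (log2 fold change -0.064, edgeR adjusted p = 0.376), and PSMD9 is described with the genes of poor precision.

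**Figure D3:**
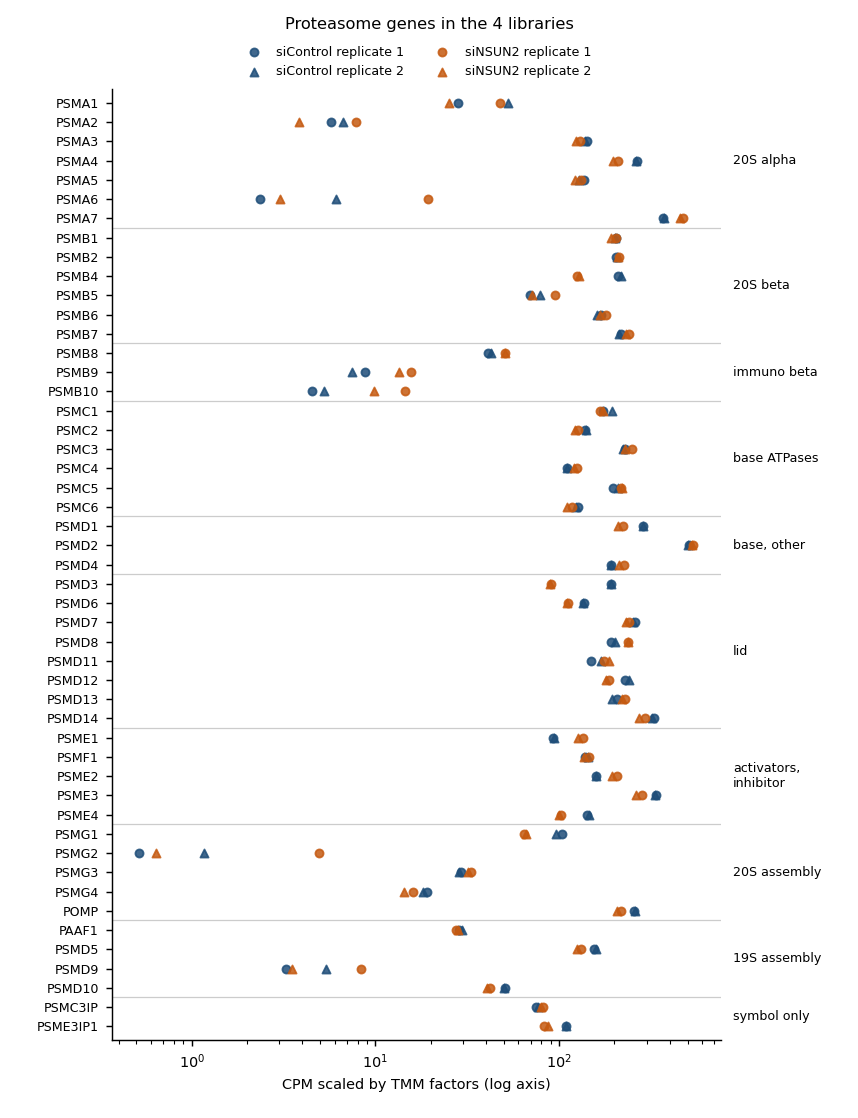
CPM of the 49 proteasome genes tested in each of the 4 libraries, on a log axis, in the order of their roles. Most genes lie between 40.3 and 536 CPM with the 4 points close together, while PSMA1, PSMA6, PSMG2 and PSMD9 spread widely within both groups.

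Subunits that share 1 complex were not counted at like levels. In siControl, the mean CPM per kilobase of coding sequence ran from 1.06 for PSMG2 to 605 for POMP, with PSMA7 at 498, PSME3 at 417 and PSMD14 at 347 next below POMP. At the low end, PSMA6 was at 5.56, PSMB10 at 5.94, PSMD9 at 6.43, PSMA2 at 8.76 and PSMB9 at 12.3. PSMA1, PSMA2 and PSMA6 are alpha subunits present in every core, yet in this unit they stood at 49.7, 8.76 and 5.56, while the other 4 tested alpha genes stood at 182 to 498. The order at the top depended on the length used. Per kilobase of exon, PSMA7 (212) stood above POMP (181), with PSME3 at 65.1 and PSMD14 at 42.1. PSMA1, PSMA2 and PSMA6 were the lowest tested alpha genes in that unit too, at 12.2, 1.16 and 0.649. PSMA8, a subunit of male germ cells, had 1 count in all 4 libraries together, and PSMB11, a subunit of the thymus, had 0 in each, which allows up to 0.0139 to 0.0892 CPM by library, for counting error only.

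Several of the genes with low counts share exons with another annotated gene. In the GENCODE release 29 annotation, 60.1% to 100% of the coding bases of PSMA1, PSMA2, PSMA6, PSMB10 and PSMD9 lie inside exons of a second gene on the same strand, and the other 44 tested members have no such overlap. In siControl, the 5 genes had a median of 6.43 CPM per kilobase of coding sequence, against 154 for the 44. Their standard errors were 0.223 to 1.35, with a median of 0.609, against a median of 0.0439 for the 44. The rows of the overlapping genes held few counts, with 0 in every library for the partner of PSMA1, 9 counts in all for that of PSMA2 and 4 in all for that of PSMD9. The partner of PSMA6 had 7 to 76 counts. Whether the counting left out reads that fall in both genes was not tested. The partner of PSMB10 was at 1.48 and 1.89 CPM in siControl and 2.32 and 2.45 CPM in siNSUN2 (log2 fold change 0.49, edgeR adjusted p = 0.0850), lower than PSMB10 in each library.

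**Figure D4:**
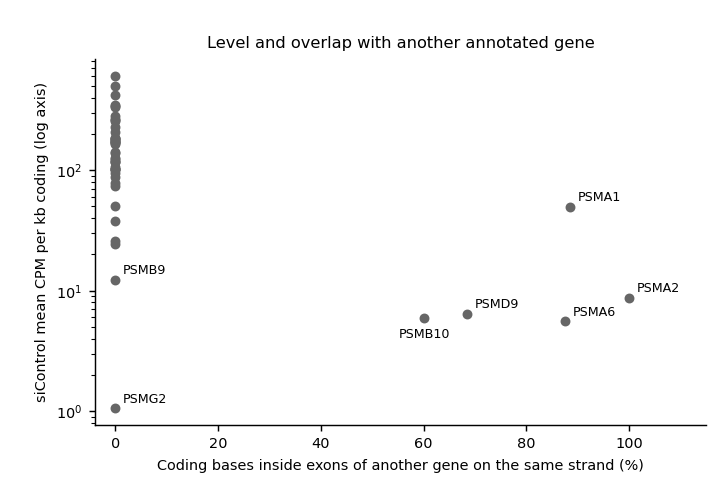
Mean level of each tested proteasome gene in the siControl libraries (CPM per kilobase of coding sequence, log axis) against the percent of its coding bases inside exons of another gene on the same strand. The 5 genes with an overlap lie at 49.7 or below, as do PSMG2, PSMB9, PAAF1, PSME4 and PSMG4, which have none.

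For the genes of poorest precision, replicates of a group differed by as much as the groups. PSMA6 was at 2.35 and 6.09 CPM in siControl and 19.2 and 3.04 CPM in siNSUN2 (log2 fold change 1.38, SE 1.35, edgeR adjusted p = 0.516). PSMG2, the partner of PSMG1, was at 0.518 and 1.17 CPM in siControl and 4.93 and 0.643 CPM in siNSUN2 (log2 fold change 1.71, SE 1.38, edgeR adjusted p = 0.436). PSMA1 was at 28.1 and 52.4 CPM in siControl and 47.6 and 25.1 CPM in siNSUN2 (log2 fold change -0.14, SE 0.609, edgeR adjusted p = 0.881). In PSMA1, PSMA6, PSMD9 and PSMG2, siControl replicate 2 and siNSUN2 replicate 1 were each over 1.5 times their partner, which held for 202 of all genes tested (1.2%). These 2 libraries had the largest totals. PSMD9, a chaperone of base assembly, was at 3.27 and 5.36 CPM in siControl and 8.39 and 3.51 CPM in siNSUN2 (log2 fold change 0.46, SE 0.649, edgeR adjusted p = 0.641). PSMA2 was at 5.72 and 6.63 CPM in siControl and 7.82 and 3.86 CPM in siNSUN2, and was called lower (-0.69) when siNSUN2 replicate 1 was left out. For these 5 genes the groups overlapped, and the log2 fold changes of PSMA6 and PSMG2, the 2 highest of all members, did not exceed the spread between replicates.

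Over the 49 tested members, the log2 fold change went with the GC content of the longest coding transcript (Spearman's rho 0.518, Pearson's r 0.331, across genes that share the 4 libraries), as it did over 16286 genes (rho 0.411). The members that rose had a median GC content of 54.2% (49.9% to 60.1%), those that fell 44.2% (34.0% to 58.6%) and those not called 48.5%. PSMD3, PSMG4 and PSMB4 were exceptions, falling with GC contents of 58.6%, 58.5% and 51.8%. At the other end, POMP had the lowest GC content of the members, 34.0%. Genes are not independent replicates, and the part of base composition in the changes was not tested beyond the values with the trends taken off.

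**Figure D5:**
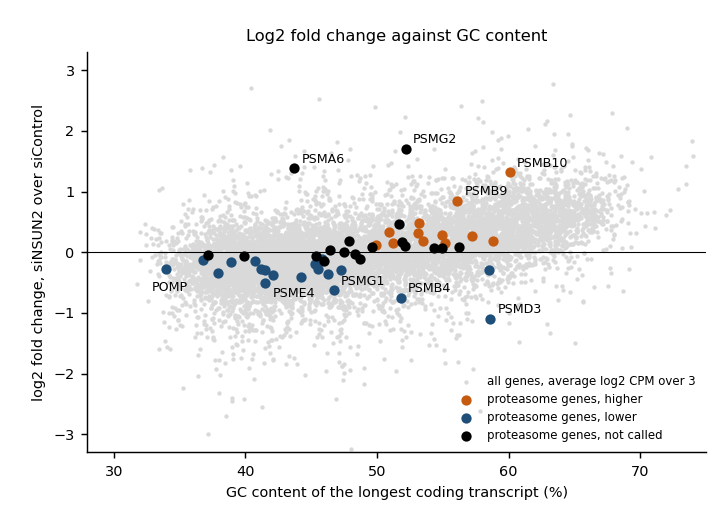
Log2 fold change (siNSUN2 over siControl) against the GC content of the longest coding transcript, for the proteasome genes (large points, coloured by call) and 9591 genes with an average log2 CPM above 3 (grey, 1 of them outside the axes). Members with low GC content lie mostly below 0 and those with high GC content mostly above, with PSMD3 far below the other points at 58.6% GC.

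A 6-base word, ACCCTA, also went with the fold changes of all genes. Where a coding gene held it in the 3′ UTR the median change was -0.16 on the log2 scale (0.086 where it did not). Of such genes 44.7% fell, against 25.5% of all genes tested, with or without the word. The part of region length and base composition in these values was not tested, and no other word was examined. Among the members, 5 of 49 held the word in the 3′ UTR (10.2%, against 21.2% of coding genes), namely PSMA4, PSMA7, PSMB2, PSME3 and PSMF1, of which 2 fell and 1 rose. In the coding sequence it was held by 6 (12.2%, against 19.2%), namely PSMA2, PSMA4, PSMC6, PSMD2, PSMD3 and PSME4, of which 4 fell and 2 were not called. Of all coding genes with the word in the coding sequence, 45.15% fell (25.5% of all genes tested), with a median log2 fold change of -0.15. The sites of PSMD3 and PSME4, which fell by over 0.5 on the log2 scale, and 1 site of PSMA4, which held the word in both regions, are shown with 10 bases on each side, from GENCODE release 29 transcripts, with the word and any A beside it in capitals.
PSMD3 coding bases 1177 to 1183: tgggacctacACCCTAAttatccggct
PSME4 coding bases 2112 to 2118: ttctccaaagAACCCTAcatttaacct
PSME4 coding bases 2195 to 2200: acacttatctACCCTAcagaatactg
PSMA4 3′ UTR bases 2978 to 2984: tcagaatttgACCCTAAcagcaggcaa
PSMB4 and PSMG1, which also fell by over 0.5, held the word in neither region. Of the 39 members without it in either region, 14 fell and 11 rose (25.5% and 27.1% over all genes tested, with or without the word). With word-bearing 3′ UTR genes left out of the fit, 7 members were called higher and 17 lower, and 3271 and 3453 of all genes. Of 28 members called in the main fit and still tested, 24 kept their call and 4 lost it.

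Around the complex, the genes that control its transcription and those that deliver substrates changed in both directions. SEM1 and ADRM1 are subunits of the cap whose symbols fall outside the rule. ADRM1, a ubiquitin receptor, went from 138 and 142 CPM to 217 and 215 CPM (log2 fold change 0.62, SE 0.0399, edgeR adjusted p = 1.62e-06), and SEM1, the smallest lid subunit, went from 108 CPM in both siControl libraries to 86.5 and 81.7 CPM (log2 fold change -0.36, SE 0.0440, edgeR adjusted p = 1.00e-04). Neither kept its call with GC and length trends taken off, when the 2 genes had a median of 0.015.

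Of the 8 genes of the NFE2L1 axis, 5 rose and 3 fell (27.1% and 25.5% of all genes tested). NFE2L1 was at 229 and 237 CPM in siControl and 300.1 and 298 CPM in siNSUN2 (log2 fold change 0.36, SE 0.0389, edgeR adjusted p = 4.43e-05). NFE2L2, its relative in the oxidative stress response, was at 93.0 and 96.4 CPM in siControl and 114 and 109 CPM in siNSUN2 (log2 fold change 0.23, SE 0.0440, edgeR adjusted p = 0.00168). Both factors were higher in each siNSUN2 library, and with GC and length trends taken off NFE2L1 was at 0.14 and NFE2L2 at 0.38, both still called. MAFF, a small partner of these factors, rose by 0.91 (edgeR adjusted p = 3.96e-07), or 0.54 with the trends taken off. NGLY1, which removes the glycans of NFE2L1, went from 49.1 and 47.0 CPM to 27.8 and 27.9 CPM (log2 fold change -0.78, edgeR adjusted p = 1.42e-06). DDI2, the protease that cleaves NFE2L1, went from 78.2 and 78.3 CPM to 48.7 and 45.3 CPM (log2 fold change -0.73, edgeR adjusted p = 1.82e-06). The 2 enzymes that process NFE2L1 were thus lower in both siNSUN2 libraries and the factor's own mRNA was higher.

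Of 9 partners bound to the proteasome, 6 rose and 2 fell (27.1% and 25.5% of all genes tested). The deubiquitinases of the list fell, UCHL5 from 108.5 and 100.5 CPM to 73.9 and 72.7 CPM (log2 fold change -0.51, edgeR adjusted p = 1.85e-05) and USP14 from 311 and 319 CPM to 258 and 247 CPM (log2 fold change -0.32, edgeR adjusted p = 1.39e-04). With GC and length trends taken off, UCHL5 was at -0.26 and still called, and USP14 lost its call at -0.064. ZFAND2A, a stress-induced binding partner of the cap, rose from 8.14 and 9.09 CPM to 15.3 and 14.6 CPM (log2 fold change 0.79, edgeR adjusted p = 4.80e-05). Of 8 shuttle and p97 genes, 3 rose and 3 fell (27.1% and 25.5% of all genes tested). The shuttle gene UBQLN2 went from 61.5 and 61.9 CPM to 33.4 and 29.8 CPM (log2 fold change -0.96, edgeR adjusted p = 1.37e-06) and NPLOC4, a p97 cofactor, changed by 0.64 (edgeR adjusted p = 1.45e-06). Of 6 ubiquitin and E1 genes, 3 rose and 2 fell (27.1% and 25.5% of all genes tested). The ubiquitin genes UBB and RPS27A went in opposite directions, with log2 fold changes of 0.56 (edgeR adjusted p = 2.73e-06) and -0.38 (edgeR adjusted p = 3.80e-05), and the E1 gene UBA6 changed by -0.23 (edgeR adjusted p = 8.20e-04). With GC and length trends taken off, RPS27A was at -0.19 and still called, and UBA6 lost its call at 0.0021.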

How the data were processed

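Poly(A) RNA of 2 siControl and 2 siNSUN2 T24 libraries was measured by RNA-seq. The table deposited by the authors holds raw read counts per Ensembl gene, made with HISAT2 and HTSeq on hg19 per the submitters' processing notes. Tool versions, gene annotation and strand setting were not given in the sources used here. The kit was a stranded one, per the labels' protocols.

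The sample titles gave the group and replicate number of each library. Counts were scaled with TMM factors (0.985 to 1.02) and tested with edgeR 4.0.16 in R 4.3.3 (filterByExpr, robust quasi-likelihood F-test, two-sided, Benjamini-Hochberg over the 16889 genes tested, threshold 0.05), with all 4 libraries and no replicate block. Replicates of a group differed by more than counting noise (chi-square over degrees of freedom 20.5 in siControl and 13.5 in siNSUN2). The code was tested on simulated data. DESeq2 1.42.0 and limma 3.58.1 were among the alternatives. A printed CPM is a count scaled to the library total and its TMM factor. A printed SE was derived from edgeR's test, as the size of the log2 fold change divided by the square root of the F statistic.

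Symbols, lengths, GC content (known for 96.4% of genes tested) and gene overlaps came from GENCODE release 29 through gene IDs. That annotation is on GRCh38, so no coordinates of the counted genes are given. For the GC and length values, a loess trend (span 0.5) on both was taken off each library.

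The members and gene lists were chosen with earlier results of these data known. Values in every library are given for called members with a log2 fold change of at least 0.5 in size, up to 2 further members of each role with the smallest p, the immunoproteasome genes with PSME1 and PSME2, and NSUN2. In lists without members, NFE2L1, NFE2L2 and up to 3 genes with the smallest p are named. Every member may be named. Some genes of these lists are not reported here by name.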

Additional observations from a re-analysis of the deposited data

How the results depend on the processing

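The 6 called members with a log2 fold change of at least 0.5 in size kept their call under all 20 alternatives, which were other tests, scalings, filters, thresholds, left-out libraries and corrections. Calls of small changes did not. The median log2 fold change of the members (-0.036) was 0.0701 with GC and length offsets, 0.0699 with a replicate block and those offsets, -0.1116 with word-bearing 3′ UTR genes left out, and -0.1146 to 0.0548 when each library was left out in turn. Members called lower became 11 with the offsets (3885 of all genes, from 4306). Members called higher became 19 with the replicate block and offsets (4133 of all genes, from 4572) and 7 without word-bearing genes (3271 of all genes). Against a fold of 1.2, 3 members were higher and 8 lower, and 2913 and 2529 of all genes. With offsets, and in brackets with replicate block and offsets, the log2 fold change changed sign for POMP at 0.082 (0.0819), PSMA3 at 0.1106 (0.1105), PSMA5 at 0.2474 (0.246), PSMC2 at 0.1344 (0.1343), PSMC6 at 0.2088 (0.2078), PSMD2 at -0.0908 (-0.0907), PSMD7 at 0.0418 (0.0416) and PSMG3 at -0.1045 (-0.1052). It did so in the block fit for PSMB1 at 0.0626 and PSMC3 at -0.1043. The PSMB8 share difference ran from -0.947 to 4.66 percentage points over left-out libraries, a choice made after seeing the data, with -0.947 without siNSUN2 replicate 2. The PSMB9 difference of 1.53 points was 3.28 by coding length and 3.04 without division by length. In the fits with a library left out, the remaining sample of its group was assumed to vary like the other group. Same-numbered libraries deviated from their group means with a correlation of 0.0878 over 9661 genes. With 2 libraries a group, and the 2 largest totals in siControl replicate 2 and siNSUN2 replicate 1, this cannot decide whether the numbers pair the libraries. A replicate block alone gave 15 higher and 20 lower members, adding PSMC1, PSMC3IP, PSMC5 and PSMD11, and 5027 higher and 4788 lower of all genes. The causes of these shifts were not tested. In the shallowest library, 1 CPM stood for 33.6 counts. With all libraries thinned to the smallest total, 12 members were higher and 18 lower, and 4235 and 4138 of all genes. The part of depth in the spread of genes with few counts was not tested.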

Other observations

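Pseudogenes, antisense and other noncoding genes named after proteasome genes had 51 rows, 44 of them pseudogenes, and 10 rows were at 0 in every library. Of the 13 tested, 8 were pseudogenes, and 1 gene passed edgeR's test (52.6% of all genes tested did). This was PSMA3-AS1, antisense to PSMA3, at 42.5 and 42.4 CPM in siControl and 37.6 and 38.1 CPM in siNSUN2 (log2 fold change -0.17, SE 0.0455, edgeR adjusted p = 0.0130), beside a log2 fold change of -0.15 for PSMA3.

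Processed copies of some members carried counts of their own, and how the reads of a gene and its copies were divided was not tested. PSMA6P1 had 95 and 312 counts in siControl and 238 and 64 in siNSUN2, beside 100 and 1295, and 1766 and 104, for PSMA6. In siControl replicate 1 the copy was therefore counted almost as often as the gene. PSMC1P1 was at 6.78 and 3.76 CPM in siControl and 6.40 and 5.52 CPM in siNSUN2. PSME2P1 was at 3.2 and 0.696 CPM in siControl and 2.32 and 0.964 CPM in siNSUN2, where the group values overlap, while PSME2 itself ran from 158 to 206 CPM over the 4 libraries.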
